A study of Mus musculus with 8 samples.

Results

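The 8 genes described here encode the ligands and receptors of the VEGF and apelin pathways, 4 ligands (Vegfa, Vegfb, Vegfc and Apln) and 4 receptors (Kdr, Flt1, Flt4 and Aplnr). They were chosen by name, with earlier results of these data known, and all 8 were found among the 13869 genes of the deposited table. RNA was measured in mouse heart ventricles at embryonic stage E14.5 (in days after conception), in 4 libraries of Mib1 mutants (Mib1flox; TnT-Cre) and 4 libraries of wild-type siblings. In the mutants Cre recombinase is driven by the cardiac troponin T promoter, so that the floxed Mib1 allele is targeted in cardiomyocytes, while endothelial and other cells of the ventricle are not the cells in which that promoter is known to act. The ventricles of 16 hearts of each genotype, with no treatment, made up the 4 pools from which its libraries were prepared. The labels do not state whether the floxed allele was present on both chromosomes, nor that pools are of different litters, so p values reflect only how much these pools varied.

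VEGF proteins are secreted growth factors that bind receptor tyrosine kinases on endothelial cells. In the embryonic mouse heart the myocardium is a known source of Vegfa, and its dose governs growth of the endocardium and of the coronary vessels. Apelin is a secreted peptide that signals through Aplnr, a G protein-coupled receptor; in mice Aplnr marks veins and the young coronary plexus, and Apln marks sprouting endothelial cells. Mib1 encodes a ubiquitin ligase that cells sending a Notch signal need, and Notch signalling between endothelial cells is known to adjust their response to VEGF.

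All 4 receptors had lower mean levels in mutant ventricles and 1 of them, Aplnr, passed the test, while none of the ligands did. Aplnr fell to 30.1 ± 1.03 CPM in mutants, against 47.4 ± 3.35 CPM in wild type (SD, n = 4 each; CPM, counts per 1000000 after the authors' normalization). Of the 8 genes, 1 was called lower and 0 higher at an adjusted p under 0.05 (limma, with the Benjamini-Hochberg method over 13740 genes), against a background of 1.25% of all tested genes called lower and 2.24% called in either direction. The median log2 difference, mutant over wild type, was −0.11 over the 4 ligands and −0.26 over the 4 receptors, against 0.00 over all tested genes. Of the 4 ligands 3 also lay below 0, and Vegfb (−0.21) and Vegfc (−0.24) stood lower than the receptor Kdr (−0.11). These medians are descriptions, and the difference between ligands and receptors was not tested.

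The libraries held 6307634 to 11506082 recovered counts, and the 8 genes rested on 113 to 2148 counts per library. The deleted gene, Mib1 (ENSMUSG00000024294), stood at 106.5, 103, 95.4 and 96.4 CPM in mutants and at 150.4, 166, 161 and 167 CPM in wild type. The groups did not overlap, with a log2 difference of −0.68 ± 0.06 (SE; limma adjusted p = 8.62e-06) and an exact two-sided permutation p of 0.0286, the smallest that 4 against 4 libraries can give. Markers of cardiomyocytes were abundant in both groups (47560 to 50910 CPM in all for 14 genes in mutants, and 49540 to 54190 CPM in wild type).

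Promoter windows of 7 of the 8 genes were matched by symbol in RefSeq's table (build GRCm38.p6), each running from 250 bases before to 50 bases after a transcription start; none was matched for Aplnr. The windows of the 3 VEGF receptors, none of which passed the test, are shown beside the upstream window of Vegfa, a ligand of Kdr and Flt1, so that the letters upstream of ligand and receptors can be set side by side. Capitals mark TGGGAA on either strand, the core letters bound by RBPJ, the DNA-binding protein of the Notch pathway.
Kdr, chr5:75978406-75978705, minus strand: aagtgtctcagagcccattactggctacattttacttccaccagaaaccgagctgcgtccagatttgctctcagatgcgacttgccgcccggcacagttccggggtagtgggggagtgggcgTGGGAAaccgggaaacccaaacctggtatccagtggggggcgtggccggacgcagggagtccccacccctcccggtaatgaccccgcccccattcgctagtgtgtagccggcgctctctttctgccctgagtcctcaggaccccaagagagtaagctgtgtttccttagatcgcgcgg
Flt1, chr5:147725962-147726261, minus strand: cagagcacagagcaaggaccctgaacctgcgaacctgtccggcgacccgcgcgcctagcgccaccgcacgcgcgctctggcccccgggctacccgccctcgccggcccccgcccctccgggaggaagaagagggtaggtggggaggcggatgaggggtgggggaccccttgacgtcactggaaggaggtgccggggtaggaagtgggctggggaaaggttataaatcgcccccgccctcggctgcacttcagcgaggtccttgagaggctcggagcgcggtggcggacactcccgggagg
Flt4, chr11:49609429-49609728, plus strand: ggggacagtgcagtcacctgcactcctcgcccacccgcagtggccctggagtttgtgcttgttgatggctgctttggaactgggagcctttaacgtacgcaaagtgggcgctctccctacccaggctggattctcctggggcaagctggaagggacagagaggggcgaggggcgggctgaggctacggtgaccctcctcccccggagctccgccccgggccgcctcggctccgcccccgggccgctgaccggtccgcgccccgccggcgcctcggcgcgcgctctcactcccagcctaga
Vegfa, chr17:46032328-46032627, minus strand: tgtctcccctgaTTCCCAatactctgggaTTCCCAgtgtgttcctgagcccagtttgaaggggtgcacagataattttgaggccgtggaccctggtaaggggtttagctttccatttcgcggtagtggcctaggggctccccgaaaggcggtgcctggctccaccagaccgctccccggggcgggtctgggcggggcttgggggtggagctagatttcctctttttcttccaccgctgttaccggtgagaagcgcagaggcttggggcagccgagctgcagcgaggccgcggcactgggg
The letters occurred once in the Kdr window and in neither the Flt1 nor the Flt4 window, and 2 matches stood in each of the 2 Vegfa windows. No match was found in the windows of Vegfb, Vegfc and Apln. On either strand, 25.6% of all 32851 windows held TGGGAA. The letters ACGTG, bound by hypoxia-inducible factors, stood only in the downstream Vegfa window of the 8 windows searched, and in 19.6% of all windows. A match of letters is a description of the window and not a bound site.

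Vegfa (ENSMUSG00000023951), the main ligand of Kdr and Flt1, was at similar levels in both groups. It had 189, 230.1, 205 and 214 CPM in mutants and 211, 229.8, 182 and 184 CPM in wild type. The ranges overlapped, with wild-type replicates 3 and 4 the lowest of the 8 libraries, and the log2 difference was 0.06 with a 95% interval from −0.11 to 0.23 (limma adjusted p = 0.794). Vegfb (ENSMUSG00000024962), which binds Flt1 and not Kdr, had 69.7, 86.1, 95.1 and 92 CPM in mutants against 96.2, 104.2, 102.4 and 90.5 CPM in wild type. The 2 lowest values belonged to mutant replicates 1 and 2, the groups overlapped, and the difference of −0.21 (interval −0.39 to −0.02) did not pass the test (limma adjusted p = 0.283). It was −0.11 without mutant replicate 1.

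Vegfc (ENSMUSG00000031520), a ligand of Flt4 that drives lymphatic and coronary vessel growth in mice, was the least abundant VEGF ligand of the 3. It stood at 15.9, 14.4, 18.8 and 18.9 CPM in mutants and at 18.95, 21.8, 19.3 and 20 CPM in wild type. The groups did not overlap, but mutant replicate 4 and wild-type replicate 1 almost met, and the log2 difference of −0.24 ± 0.10 (SE) did not pass the test (limma adjusted p = 0.291). Apln (ENSMUSG00000037010), the apelin precursor, gave 20.3, 24.1, 18.5 and 20.9 CPM in mutants and 22.4, 21.7, 19.1 and 20.6 CPM in wild type. Its groups overlapped throughout, the log2 difference was −0.01 (interval −0.21 to 0.20; limma adjusted p = 0.989), and its sign turned in several alternative fits. Apln lies on the X chromosome, and the 4 Y-linked genes summed to 86.1 to 196.9 CPM in mutants and 113.8 to 223.3 CPM in wild type. With the Y-linked level as a covariate Apln stood at 0.05 on the log2 scale.

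**Figure D1:**
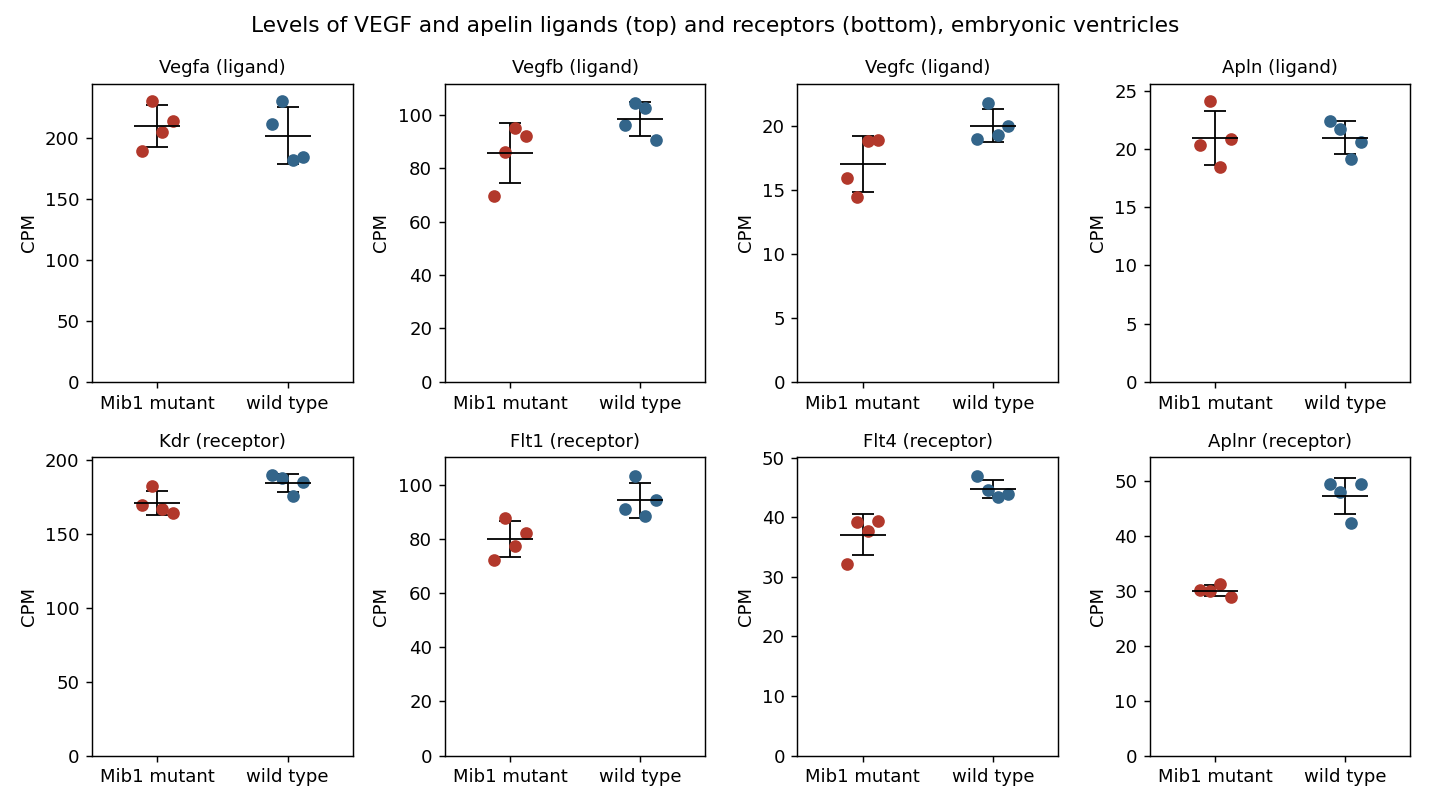
Level of each gene in CPM (vertical axes, from 0) in the 4 Mib1 mutant and 4 wild-type libraries; points are libraries, bars the mean and SD, ligands in the top row and receptors in the bottom row. The mutant points of Aplnr lie between 28.8 and 31.4 CPM, below all wild-type points, whereas those of Apln cover the wild-type range and those of Vegfa, from 189 to 230.1 CPM, overlap wild-type points from 182 to 229.8 CPM.

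Among the receptors, Kdr (ENSMUSG00000062960), the main signalling receptor for Vegfa, was the most abundant. It had 169.8, 182, 167 and 164 CPM in mutants and 190.0, 188, 176 and 185 CPM in wild type. Mutant replicate 2 lay above wild-type replicate 3, and the log2 difference of −0.11 (interval −0.221 to −0.004) did not pass the test (limma adjusted p = 0.315). Flt1 (ENSMUSG00000029648), which binds Vegfa tightly, signals weakly and has a soluble form that holds ligand back, gave 72.3, 87.6, 77.3 and 82.3 CPM in mutants and 91, 103.3, 88.4 and 94.2 CPM in wild type. Its groups did not overlap, and the difference of −0.24 ± 0.07 (SE) had a limma adjusted p of 0.0982.

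Flt4 (ENSMUSG00000020357), the receptor for Vegfc, had 32.1, 39.2, 37.6 and 39.3 CPM in mutants and 46.9, 44.6, 43.4 and 43.9 CPM in wild type. All mutant libraries were below all wild-type libraries, with replicate 1 the lowest, and the difference of −0.27 ± 0.08 (SE) had a limma adjusted p of 0.081. Of the 8 genes, 4 (Vegfc, Flt1, Flt4 and Aplnr) were lower in mutants without overlap, as were 4.65% of all tested genes. Below 0 lay 7 of the 8, against 49.7% of all tested genes. At an unadjusted p under 0.05, 6 of the 8 were lower, against 7.85% of all tested genes lower at that level. Vegfa and Apln were the exceptions. The 8 genes were chosen with earlier results of these data known, so these shares are descriptions and not a test of the set.

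Aplnr (ENSMUSG00000044338) gave 30.3, 30, 31.4 and 28.8 CPM in mutants and 49.5, 48, 42.4 and 49.5 CPM in wild type. The mutant values lay close together, and the highest of them, 31.4 CPM in replicate 3, stood well below the lowest wild-type value, 42.4 CPM in replicate 3. The level was 1.57-fold higher in wild type, a log2 difference of −0.65 ± 0.07 (SE; interval −0.80 to −0.50; limma adjusted p = 0.000128). With any 1 library left out the call held, with log2 differences between −0.70 and −0.63 and limma adjusted p values from 0.000195 to 0.00116.

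**Figure D2:**
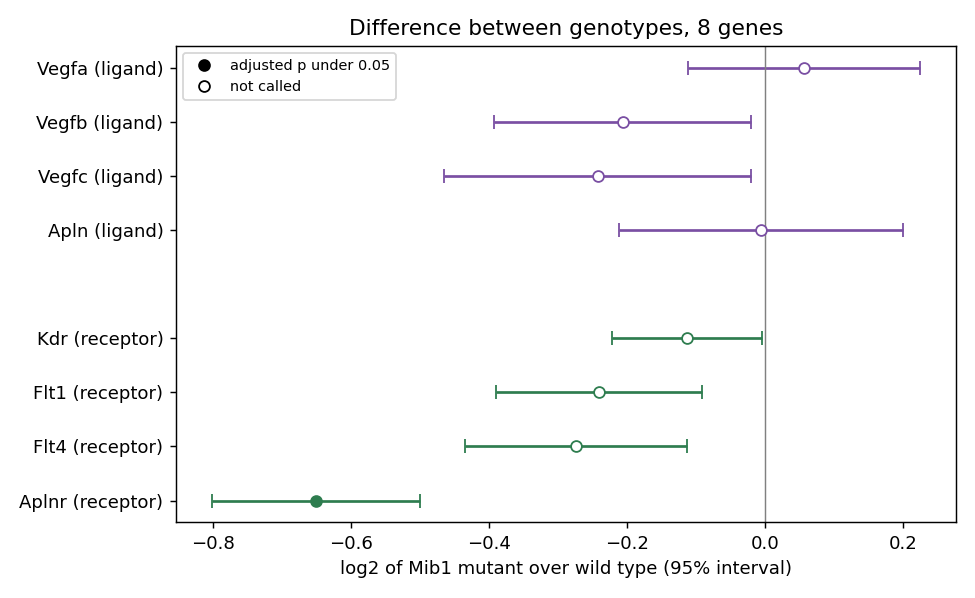
Log2 of mutant over wild type for the 4 ligands and 4 receptors, with 95% intervals from limma (horizontal axis); the filled point passed an adjusted p under 0.05. All 4 receptors lie below 0, from −0.11 for Kdr to −0.65 for Aplnr, and Vegfa and Apln lie near 0.

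Levels of different genes were compared after division by length (CPM per kilobase of merged exons from the GENCODE M21 annotation). In mutants the order was Vegfb (53.4), Vegfa (48.9), Kdr (18.9), Aplnr (8.14), Vegfc (6.94), Apln (6.65), Flt1 (5.92) and Flt4 (4.51) CPM per kilobase. In wild type it was Vegfb (61.3), Vegfa (47.1), Kdr (20.4), Aplnr (12.8), Vegfc (8.17), Flt1 (6.98), Apln (6.66) and Flt4 (5.43). In the mutant libraries the ranges of Vegfb and Vegfa overlapped, as did those of Vegfc, Apln and Flt1; in wild type only Flt1 and Apln overlapped among neighbours in the order. Aplnr stood between Kdr and Vegfc in both groups, but its lead over Vegfc in mutants was 7.80 against 7.71 CPM per kilobase between the nearest libraries, and 11.5 against 8.91 in wild type. The places of Flt1 and Flt4 depend on the length used. With the longest annotated transcript Flt1 stood at 11.6 in mutants and 13.7 in wild type, above Aplnr in both groups. By that length Flt4 stood at 7.15 in wild type, above Apln at 6.66 with overlapping ranges, and at 5.93 in mutants, still the lowest.

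**Figure D3:**
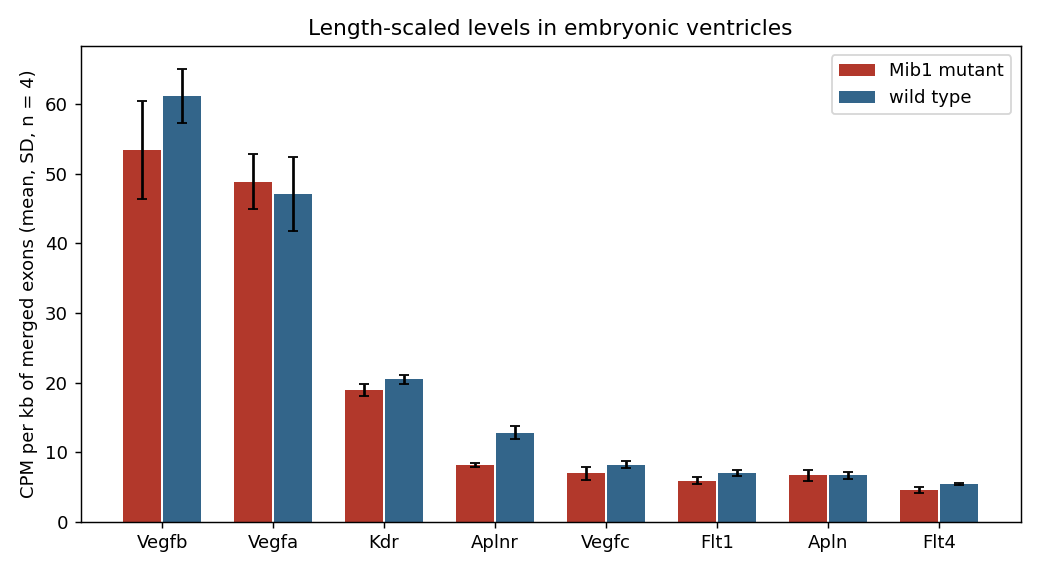
Level in CPM per kilobase of merged exons (vertical axis, from 0) for each gene, ordered by the wild-type mean; bars are means and whiskers the SD of 4 libraries. Vegfb and Vegfa stand at 47.1 to 61.3 CPM per kilobase, and Vegfc, Flt1, Apln and Flt4 below 10 in both groups.

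Each ligand was set against its receptors within every library, where library size cancels. Gene length stays in each ratio and cancels only in the difference between the groups. The log2 ratio of Apln to Aplnr was −0.58, −0.31, −0.76 and −0.47 in mutants and −1.14, −1.15, −1.15 and −1.26 in wild type, higher in all mutant libraries by 0.65 on average. The log2 ratio of Vegfa to Flt1 was 1.39, 1.39, 1.41 and 1.38 in mutants and 1.22, 1.15, 1.04 and 0.97 in wild type, also without overlap. The mutant values of that ratio lay close together, although Vegfa itself ranged from 189 to 230.1 CPM in those libraries. For Vegfa to Kdr the mutants ranged from 0.16 to 0.38 and wild type from −0.01 to 0.29, which overlapped. The ratios of Vegfb to Flt1, Vegfc to Flt4 and Vegfc to Kdr overlapped as well, with mean differences of 0.03, 0.03 and −0.13. These ratios are descriptions with no test.

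Aplnr stood lower against the other receptors as well. The log2 ratio of Aplnr to Kdr lay between −2.61 and −2.41 in mutants and between −2.05 and −1.90 in wild type, and those to Flt1 and Flt4 did not overlap between the groups either (mean differences −0.41 and −0.38). The ratios of Flt1 to Kdr and of Flt4 to Kdr overlapped between the groups, with mean differences of −0.13 and −0.16. For Flt4 to Kdr only mutant replicate 4, at −2.06, lay within the wild-type range of −2.07 to −2.02.

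All 4 receptors are made largely by endothelial cells, and in tissue RNA fewer cells of a type and less RNA per cell cannot be told apart. Of 21 pan-endothelial markers, none a member, 4 fell (Mmrn2, Ramp2, Egfl7 and Tek), none rose and 18 lay below 0, with a median of −0.16. Mmrn2, an endothelial matrix protein, had 68.7 ± 5.46 CPM in mutants and 90.4 ± 4.05 CPM in wild type (SD, n = 4 each; limma adjusted p = 0.00404), and Pecam1, an endothelial adhesion molecule, had 176 ± 9.69 CPM in mutants and 189.9 ± 6.17 CPM in wild type (limma adjusted p = 0.355). The 21 markers summed to 1547 to 1614 CPM in mutants and to 1756 to 1820 CPM in wild type, and none was absent. With 1 library left out the calls of Mmrn2 and Ramp2 held in all 8 fits, but that of Egfl7 was lost in 6 (log2 differences −0.43 to −0.31) and that of Tek in 7 (−0.28 to −0.22). Against the mean of these markers within a library, Kdr, Flt1 and Flt4 overlapped between the groups, with mean log2 differences of 0.07, −0.06 and −0.09. Aplnr did not overlap, at −0.69, −0.77, −0.76 and −0.82 in mutants and −0.26, −0.28, −0.43 and −0.20 in wild type. With the marker mean as a covariate Aplnr stood at −0.53 and was not called (limma adjusted p = 0.297); that mean ran from 5.61 to 5.73 log2 CPM in mutants and from 5.83 to 5.89 in wild type, so covariate and genotype cannot be told apart in that fit, which called 23 genes in all.

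**Figure D4:**
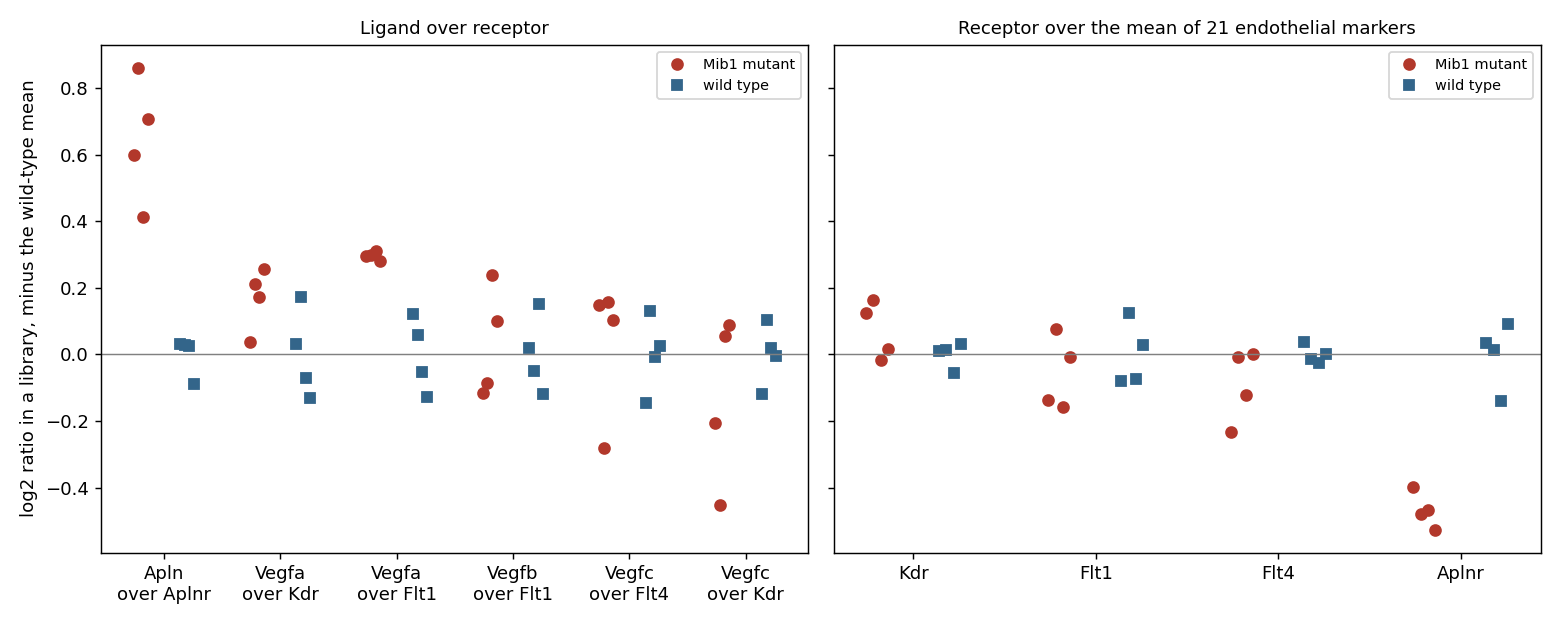
Log2 ratio in each library minus the wild-type mean of that ratio (vertical axis), for ligands over their receptors (left) and receptors over the mean of 21 endothelial markers (right); circles are mutant and squares wild-type libraries. Apln over Aplnr and Vegfa over Flt1 lie higher in all mutant libraries, and on the right Aplnr alone of the 4 receptors does not overlap.

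Most endocardial markers were lower too. Of 10, 5 fell (Plvap, Vwf, Npr3, Adgrg6 and Foxc1), none rose and 8 lay below 0, with a median of −0.29. Nfatc1 (0.055) and Hapln1 (0.074) lay above 0 and were not called. The sums were 464 to 492 CPM in mutants and 588 to 612 CPM in wild type. Plvap, a protein of endothelial diaphragms, had 44 ± 4.14 CPM in mutants and 69.1 ± 3.94 CPM in wild type (SD, n = 4 each; limma adjusted p = 0.000198), with a log2 difference of −0.65. The calls of Plvap, Vwf and Npr3 held whichever library was left out, that of Adgrg6 was lost in 4 of the 8 such fits (−0.37 to −0.29) and that of Foxc1 in 5 (−0.57 to −0.43). Of the calls that held, the pan-endothelial covariate ended the calls of Mmrn2, Ramp2, Plvap and Vwf (limma adjusted p = 0.84, 0.633, 0.53 and 0.322). Mmrn2 and Ramp2 are themselves part of that marker mean, so the loss of their calls is partly built in. The fit with no variance trend ended the call of Npr3 (limma adjusted p = 0.05). In the 15 alternative fits that kept all libraries Egfl7 and Tek were called in 11 each, Adgrg6 in 12 and Foxc1 in 13. Against the mean of the endocardial markers Aplnr ranged from −0.10 to 0.14 in mutants and from 0.13 to 0.45 in wild type, so that mutant replicate 3 overlapped wild-type replicate 3. On the same scale Kdr was higher in mutants without overlap, at 2.41 to 2.61 in mutants and 2.18 to 2.39 in wild type, and Flt1 and Flt4 overlapped with mean differences of 0.08 and 0.04. The mean ratios of the VEGF receptors to the endocardial markers were not lower in mutants, and these ratios carry no test. Of 10 coronary endothelial markers measured (of 12 listed), the fatty acid transporter gene Cd36 fell by 0.39 on the log2 scale and the netrin receptor gene Unc5b rose by 0.36, with wild-type replicate 4 apart from its group; each lost its call in 5 of the 8 fits without a library (−0.46 to −0.30 for Cd36, 0.31 to 0.43 for Unc5b), and they were called in 12 and 13 of the 15. The sums were 700.4 to 774 CPM in mutants and 708 to 759 CPM in wild type. None of 6 lymphatic markers was called, and their median was 0.20; Nr2f2, also a venous regulator, stood at −0.31 (limma adjusted p = 0.0617). The part of these cell types in the level of Aplnr was not tested.

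The remaining genes of the pathways held few calls. Of 4 further ligands and receptors none was called. Nrp2, a coreceptor for Vegfc, had 41.8 ± 2.62 CPM in mutants and 51.1 ± 4.18 CPM in wild type (SD, n = 4 each), lower without overlap (limma adjusted p = 0.0636), while Nrp1, the coreceptor for Vegfa, stood at 0.10, the Flt1 ligand Pgf at 0.17 and the Flt4 ligand Vegfd at −0.13. None of 33 genes of signal transduction below the VEGF receptors was called, and 11 lay below 0. Protein kinase C alpha, Prkca, had the smallest p (limma adjusted p = 0.08). It stood at 97.5 ± 7.2 CPM in mutants and 83.6 ± 1.88 CPM in wild type (SD, n = 4 each), higher without overlap. None of 12 genes of apelin receptor signalling was called, and the transcription factor gene Klf4 led with 0.38, higher without overlap (limma adjusted p = 0.104). The list medians were −0.02, 0.03 and −0.03.

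Genes upstream and downstream of Vegfa were compared in the same way. Of 8 oxygen-sensing genes Epas1, which encodes the HIF-2 alpha subunit that endothelial cells use, fell to 60.5 ± 3.82 CPM in mutants, against 78.2 ± 5.61 CPM in wild type (SD, n = 4 each; limma adjusted p = 0.0101), a call that held whichever library was left out. It was lost with no variance trend (limma adjusted p = 0.063), with the Y-linked covariate (limma adjusted p = 0.0505) and with the pan-endothelial covariate (limma adjusted p = 0.391), at log2 differences of −0.37, −0.38 and −0.39. Hif1a, its paralog, stood at 459 ± 60.8 CPM in mutants and 366 ± 26.8 CPM in wild type. It was higher without overlap but did not pass the test (0.32, limma adjusted p = 0.057). None of 16 hypoxia-inducible genes was called, and their median was −0.01; Hk2, a hexokinase, had the smallest p (−0.24; limma adjusted p = 0.112). None of 11 endothelial genes known to respond to VEGF was called, and their median was −0.03. Angpt2, a destabilising ligand of Tek, stood at 4.3 ± 0.683 CPM in mutants and 2.88 ± 0.727 CPM in wild type (SD, n = 4 each). It rested on only 16 to 46 counts per library, which limits its precision. Angpt2 was higher without overlap (limma adjusted p = 0.203), and Dll4, the Notch ligand of tip cells, stood at −0.05.

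**Figure D5:**
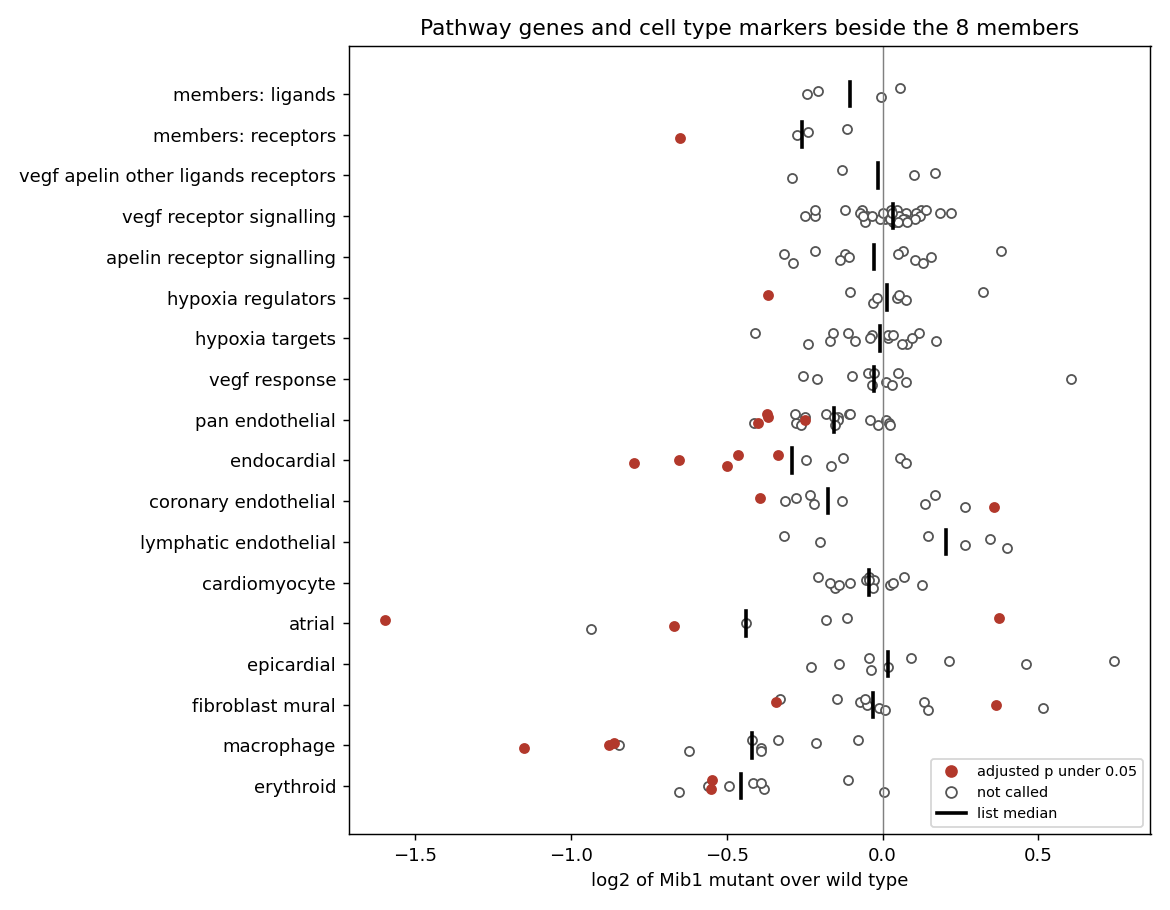
Log2 of mutant over wild type (horizontal axis) for the genes of each list; filled points passed an adjusted p under 0.05, open points did not, and the vertical bar is the list median. The median was −0.26 for the receptors and −0.11 for the ligands. It was −0.16 for pan-endothelial, −0.17 for coronary endothelial, −0.29 for endocardial and 0.20 for lymphatic markers. Lower medians stood at macrophage (−0.42), atrial (−0.44) and erythroid (−0.45) markers.

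Markers of other cells in the ventricle moved in the same libraries. Of 11 macrophage markers all lay below 0 and 3 fell (Lyz2, Tyrobp and C1qc), with sums of 79.2 to 99.6 CPM in mutants and 115 to 140.3 CPM in wild type. Of 10 erythroid markers measured 9 lay below 0 and 2 fell (Ank1 and Hba-a1), and the sums overlapped, at 1981 to 3252 CPM in mutants and 3022 to 4119 CPM in wild type. Of 7 atrial markers Nppa, which trabecular myocardium also expresses, and Kcnj3 fell and Myl7 rose. The sums were 1681 to 2018 CPM in mutants and 2406 to 2620 CPM in wild type. Most of that gap was Nppa, at 361.6 ± 35.9 CPM in mutants and 1090 ± 36.1 CPM in wild type. Myl4, at 1030 ± 72 and 1114 ± 23.7 CPM, overlapped and was not called (limma adjusted p = 0.34). None of 9 epicardial markers was called (Krt8 stood at 0.74, limma adjusted p = 0.074), nor any of 14 cardiomyocyte markers (Tnnt2 at −0.21, limma adjusted p = 0.0658). Of 12 fibroblast and mural markers Acta2 rose by 0.36 and Abcc9 fell by 0.34 on the log2 scale. With a library left out, calls were lost in 6 of the 8 fits for C1qc (−1.02 to −0.76), Hba-a1 (−0.66 to −0.42) and Myl7 (0.28 to 0.43) and in 5 for Abcc9 (−0.38 to −0.26). In the 15 fits that kept all libraries C1qc and Abcc9 were called in 12 each and Hba-a1 and Myl7 in 10 each. The part of these cells in the results for the 8 genes was not tested.

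The 2 genes most like each member over the 8 libraries were found by Pearson's r of log2 CPM among 10777 genes. For Aplnr these were Lyz2, a macrophage lysozyme (r = 0.99), and Hrc, a calcium-binding protein of cardiomyocytes (r = 0.98); after removal of the group means r was 0.85 and 0.58, so part of the likeness is the difference between the groups itself. For Flt4 they were Ndufv1 and Bcam (0.99 and 0.98), for Flt1 Peli2 and Hk2 (0.97 and 0.96), and for Kdr Adgre1 and Hk1 (0.95 each). For the ligands they were Nrde2 and Gne (Vegfa, 0.94 and 0.91), Zdhhc12 and Atpif1 (Vegfb, 0.99 each), Klhl21 and Rps25 (Vegfc, 0.98 and 0.97), and Rpap2 and Foxred1 (Apln, 0.97 and 0.95). Apart from Aplnr's, these r values were 0.90 or higher after removal of the group means. They are the highest of many and carry no test, and Lyz2 and Hrc were the only called genes among the 16.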

How the data were processed

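Polyadenylated RNA was sequenced from 1 end. Per the submitters' processing notes, the tools were cutadapt 1.2.1, RSEM 1.16, Bowtie2 (as version 0.12.7), limma and edgeR, with genome build mm9. The deposited values are a score. In each column they equal log2 CPM with a prior of 0.5 counts, multiplied by a constant (15.9683 to 16.0735) that makes the column sum to 1000000. Dividing by (second lowest minus lowest distinct value)/log2(3) gave log2 CPM, and 100% of the values then returned whole counts within 0.001. No source used here says how the genes of the table were selected. The normalization of the authors was kept.

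Symbols were matched for 13428 of 13869 genes (GENCODE M21). The 13740 genes whose log2 CPM averaged 0 or more were tested by limma 3.58.1 in R 4.3.3 with a mean trend and group as the only term, two-sided, with Benjamini-Hochberg adjustment. No test for counts was used, since the deposited unit is a score; voom on the recovered counts was an alternative. The procedure was tested on simulated data. A floor of 3 counts was 0.265 to 0.472 CPM, for counting error only. The members, lists and tests were chosen with earlier results of these data known. Named are the members, Mib1, up to 3 called genes per list (or the 1 of smallest p) and 2 like genes per member (mean of at least 5 CPM); other names were chosen after their values were seen. Library numbers occur in both groups but were not used as pairs, because no source says that they mark a shared litter or batch. The alternatives covered pseudocount, filter, scaling, variance model, covariates, replicate block, threshold and each library left out.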

Additional observations from a re-analysis of the deposited data

Results flagged for a closer look

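In 5 of 108 groups of 4 libraries examined, 1 library stood apart from the other 3 by the ratio of Dixon, which chance gives in about 1 of 20 groups. None of these groups belonged to the 8 members or to Mib1. Unc5b had 168.8 CPM in wild-type replicate 4, against 192 to 194 CPM in the others. Ddx3y had 73.8 CPM in mutant replicate 2, against 29.3 to 35.1 CPM in the others. Foxred1 had 57.2 CPM in wild-type replicate 3, against 64 to 65.2 CPM in the others. Hk1 had 444 CPM in mutant replicate 2, against 409 to 411 CPM in the others. Hrc had 88.1 CPM in mutant replicate 1, against 83.9 to 84.6 CPM in the others.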

How the results depend on the processing

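The call of Aplnr held in 22 of the 23 other fits, and no other member was called in any of them. The exception was the pan-endothelial covariate, which gave 0 members called, 23 genes called, and medians of 0.185 for the ligands and −0.083 for the receptors. Egfl7 is itself part of the marker mean used there, so its value in that fit is partly built in. Under that covariate Vegfb stood at 0.368, Vegfc at 0.002, Flt4 at 0.077, Prkca at −0.058, Hk2 at 0.01, Egfl7 at 0.217, C1qc at 0.014, Hba-a1 at 0.009, Zdhhc12 at 0.466, Atpif1 at 0.208, Klhl21 at 0.013, Rps25 at 0.045, Ndufv1 at 0.043 and Bcam at 0.097 on the log2 scale, each turned in sign. The count of all genes called, 308, was 179 with no variance trend, 155 with the Y-linked covariate, 551 at an adjusted p under 0.1 (where 3 members were called, Flt1, Flt4 and Aplnr), and between 145 and 481 with 1 library left out. Apln was 0.003 with quantile normalization and 0.047 with the Y-linked covariate, where Foxred1 was 0.009. With a library left out, Apln ranged from −0.075 to 0.053, Nrde2 from −0.023 to 0.098, Rpap2 from −0.126 to 0.022 and Foxred1 from −0.091 to 0.007. The cause of these shifts was not tested. With the replicate block, which pairs libraries by number only, 240 genes were called and Aplnr stood at −0.65 (limma adjusted p = 0.00133); same-numbered libraries correlated at −0.04 to 0.1 across genes after removal of the group means, and 1 of the 8 resembled its own number best. Precision at the lowest members, Vegfc and Apln, is limited by 113 to 230 counts per library.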
